A study of Mus musculus with 10 samples.

Results

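The cytosolic ribosomal protein genes were followed in RNA sequencing of mouse mammary tumors and of macrophages sorted from them. They were taken by name: protein-coding genes whose symbol starts with Rpl or Rps and a digit, with Rplp0, Rplp1, Rplp2 and Rpsa, leaving out the Rps6 kinases and rows named with -ps. This gave 85 genes of 24616 listed in either table, and 81 of the 85 stood in both. The macrophage table held 84 of them among 23202 genes, 49 of the large and 35 of the small subunit. The tumor table held 82 among 19720 genes, 47 of the large and 35 of the small subunit. Rpl17, Rpl38 and Rpl39l stood in the macrophage table alone, and Rpl23a in the tumor table alone. The name rule also took Rps19bp1, which encodes a protein that binds Rps19, and Rps23rg1 and Rps27rt, whose names mark them as retrogene-type copies. It missed ribosomal proteins that are named differently, such as Fau and Rack1. Every mouse carried the MMTV-PyMT transgene, a viral oncogene driven mainly in mammary epithelium, and floxed Cxcr4, the gene of the CXCL12 receptor. The cKO mice had the genotype B6:MMTV-PyMT;Cxcr4fl/fl;LysmCre, with Cre driven in myeloid cells, and the controls were littermates without Cre. Tumors matched in size were taken at 15 weeks of age. Macrophages were sorted on F4/80 and CD11b after enzymatic digestion from cKO mice 725, 746 and 867 and from control mice 706, 720 and 775, whereas whole tumors were snap frozen from cKO mice 725 and 746 and control mice 706 and 720.

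A ribosome is built from a small subunit, which reads the mRNA, and a large subunit, which joins amino acids. Each subunit holds ribosomal RNA and a fixed set of proteins, most of them present once per particle, so the proteins are made in matched amounts. Their mRNAs usually start with a C followed by a run of pyrimidines, the terminal oligopyrimidine (TOP) motif, through which mTOR signalling controls their translation. The genes are short, have left many processed pseudogenes in the genome, and often carry small nucleolar RNAs (snoRNAs) in their introns.

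The libraries held 14.32 to 25.06 M reads in macrophages and 34.12 to 53.13 M in tumors (M, 1000000), as estimated from the steps between low values. Levels are in CPM, that is reads scaled so that each library sums to 1000000. The targeted gene, Cxcr4, did not come out lower under the cKO label: it stood at 41.9, 165 and 24.1 CPM in cKO macrophages 725, 746 and 867 and at 14.4, 135 and 54.3 CPM in control macrophages 706, 720 and 775. In whole tumors, where all cells add to the value and the myeloid deletion is not tested, it stood at 47.9 and 57.6 CPM in cKO and 29.8 and 33.4 CPM in control. Directions below are therefore those of the libraries labelled cKO. All 10 macrophage markers, among them Adgre1, which encodes F4/80, and Itgam, which encodes CD11b, were listed in the macrophage table and summed to 902 to 2291 CPM, against 94.7 to 104 CPM in tumors. The 8 epithelial markers (Epcam, keratins and others) summed to 2004 to 2958 CPM in the same sorted libraries, above the 980 to 1129 CPM of the tumors. Control macrophage 775 alone had the 902 CPM of macrophage markers, and the other sorted libraries had 1831 CPM or more. The 6 fibroblast markers summed to 426.5 CPM in control 775 and 1177 CPM in cKO 867, against 58.4 to 143 in the others. The 5 endothelial markers summed to 90 and 252 CPM there, against 14.3 to 20.6 in the others. The part of cell content in the values below was not tested. In these bulk samples, fewer cells of a type and less RNA per cell cannot be told apart.

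A minority of the annotated starts carry the motif for which the family is known. A C at the start followed by at least 4 pyrimidines (C or T) on the gene's own strand stood at 14 of 76 member starts in RefSeq (18.4%, in 14 of 65 genes), beside 2.51% of 32851 starts of all genes and 0 of 75 starts of mitochondrial ribosomal protein genes. The large subunit had 7 of 44 such starts and the small subunit 7 of 32. Allowing the same letters to begin up to 10 bases to either side, the share was 53.9% of member starts, 30.7% of all starts and 41.3% of mitochondrial ribosomal protein starts. The 6 windows shown, 3 from each subunit, are examples of such starts; each has 10 bases before the RefSeq start and 20 from it (GRCm38.p6), with the pyrimidine run at the start in capitals. They lie at chr14:18270967-18270996 (minus strand, Rpl15), chr2:39005112-39005141 (minus, Rpl35), chr7:4792955-4792984 (plus, Rpl28), chr4:86857348-86857377 (minus, Rps6), chr17:27635225-27635254 (minus, Rps10) and chr17:33955646-33955675 (minus, Rps18).
Rpl15: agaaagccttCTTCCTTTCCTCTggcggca
Rpl35: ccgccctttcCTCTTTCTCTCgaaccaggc
Rpl28: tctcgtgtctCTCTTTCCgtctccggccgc
Rps6: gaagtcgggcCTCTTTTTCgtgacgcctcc
Rps10: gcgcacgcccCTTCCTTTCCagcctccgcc
Rps18: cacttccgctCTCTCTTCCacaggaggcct

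Rpl13, a large-subunit protein gene at chr8:123102350-123105244 (plus strand, GRCm38), had by far the highest value of the members. In macrophages it stood at 5641, 4461 and 9911 CPM in controls 706, 720 and 775 and at 6232, 3011 and 4632 CPM in cKO 725, 746 and 867. Control 775 was highest and cKO 746 lowest, and the groups overlapped. This put Rpl13 10th among all genes of the table by mean level, and it made up 42.2% to 75.3% of the summed members in each library. In tumors it stood at 392 and 481 CPM in controls 706 and 720 and at 326 and 348 CPM in cKO 725 and 746, 16.8% to 23.6% of the summed members. Both control tumors were above both cKO tumors, as was the case for 14.3% of all genes tested, and the gene ranked 176 in that table. The snoRNA gene Snord68 lies inside an annotated exon of Rpl13. The part of its reads in these values was not tested.

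The next members by macrophage level were Rpl4, a large-subunit protein that lines the exit tunnel, at 725 CPM on average over the 6 libraries, and Rpl41, the shortest ribosomal protein, at 183 CPM. Rpl4 ranged from 560 CPM in cKO 867 to 897 CPM in control 775. Rpl41 ranged from 96.6 CPM in control 775 to 344 CPM in control 706. In tumors Rpl13 was followed by Rpl4 at 218 CPM and by Rplp1, an acidic protein of the ribosomal stalk, at 151 CPM.

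Many members were weakly detected, and more of them in tumors. Of the 84 in macrophages 29 had a mean under 10 CPM, and 9 had a mean over 100 CPM. In tumors 45 of 82 were under 10 CPM and 4 over 100 CPM. In macrophages and in tumors alike 10 members were listed at 0 in at least 1 library. In macrophages these included the paralog Rpl39l, the retrogene-type copy Rps23rg1 and Rps19bp1. Genes of core ribosomal proteins, such as Rpl24 and Rpl37, were also among them. Rps27, a zinc-finger protein of the small subunit, was listed at 0 in control 706 and in cKO 746 and 867, at 0.00213 CPM in control 720, at 1.56 CPM in control 775 and at 2.83 CPM in cKO 725. A value such as 0.00213 CPM is far below the 0.0446 CPM that a read was worth in that library, so the deposited values are estimates and not whole reads.

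**Figure D1:**
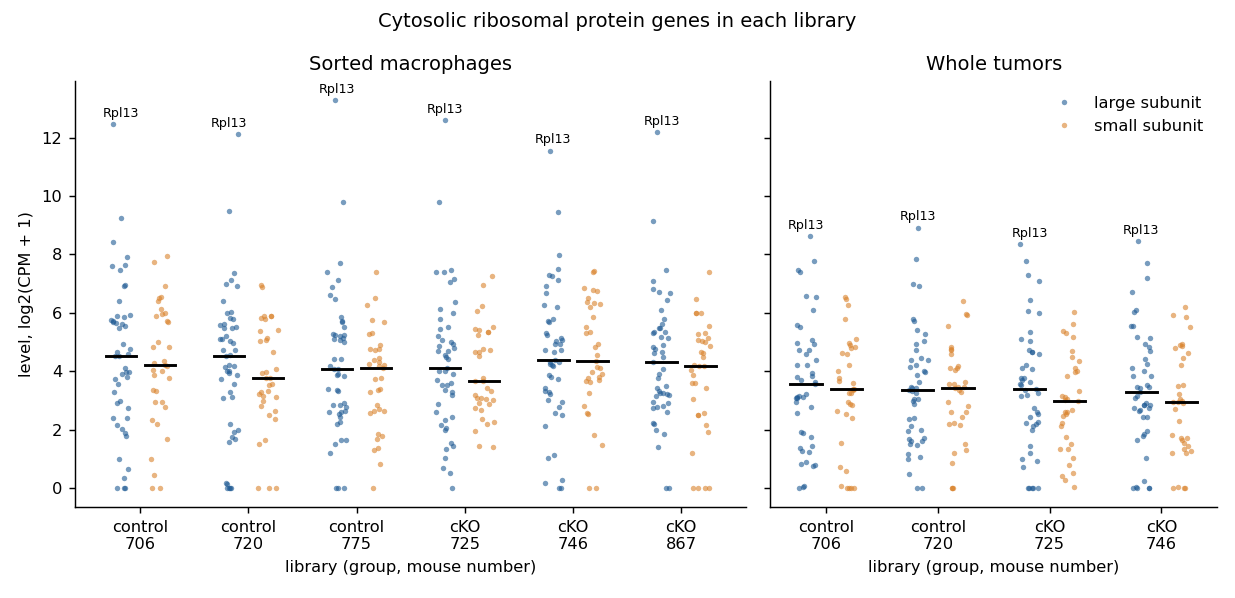
Level of each member as log2(CPM + 1), vertical axis, in each library, horizontal axis, with large-subunit genes in blue, small-subunit genes in orange and the median of each as a black line. Rpl13 stands alone at the top of every library, and the other members of both subunits spread over the same range down to 0.

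Per length, the subunits were alike in level. Dividing each mean CPM by the length of the gene's main transcript in kilobases gave a median of 27.2 CPM per kb over 49 large-subunit genes and 23.1 over 35 small-subunit genes in macrophages. In tumors the medians were 10.1 over 47 and 10.7 over 35. The range was far wider than the difference between subunits: in macrophages from 0.346 to 7241 CPM per kb in the large subunit and from 0.176 to 215 in the small subunit. For proteins that enter the particle in matched amounts, the members thus had very unequal values. On the same per-length scale the mitochondrial ribosomal protein genes had a median of 3.82 CPM per kb in macrophages and 3.16 in tumors. Rack1, the small-subunit scaffold protein that the name rule missed, had 301 CPM per kb in macrophages and 133 in tumors, and Fau, whose product is cleaved to a small-subunit protein, had 8.53 in macrophages. The elongation factor gene Eef1a1, chosen for comparison after values were seen, had 1671 CPM per kb in macrophages and 816 in tumors. Across the 81 members in both tables, the order of levels per kb in macrophages followed that in tumors with a Spearman rho of 0.807, a description over genes that share libraries from 4 of the mice.

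Rows named after a member with -ps often stood above the member itself. The macrophage table had 120 such rows, of which 32 had a mean above that of the gene they are named after and 21 were above it in every library. The tumor table had 102, with 28 above by mean and 22 above in every library. Rpl3-ps1 stood at 226 ± 35.4 CPM (SD, n = 6) in macrophages, where Rpl3, a protein near the peptidyl transferase centre, stood at 40.9 ± 12.9 CPM. Rpl10-ps3 stood at 180 ± 63.2 CPM beside 34.9 ± 7.09 CPM for Rpl10, which acts late in subunit assembly. Rps27a-ps3 stood at 137 ± 32.0 CPM beside 13.9 ± 6.51 CPM for Rps27a, which is made as a fusion with ubiquitin. Rps6-ps4 stood at 67.5 ± 21.5 CPM beside 10.2 ± 9.16 CPM for Rps6, the substrate of the S6 kinases. The same 4 pairs had the same order in tumors, where Rpl3-ps1 stood at 168 ± 36.6 CPM (SD, n = 4) and Rpl3 at 17.0 ± 8.68 CPM.

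The sequences of these pairs are shown because reads of most of their length cannot be assigned by sequence to one row or the other. Each line has 60 bases of coding sequence from the GENCODE vM21 transcripts, with the bases that differ between member and copy in capitals. Over the whole coding sequence, Rpl3 and Rpl3-ps1 (chrX:13202571-13203780, plus strand, GRCm38) differed at 2 of 1209 bases, and the window covers bases 27 to 86. Rps27a and Rps27a-ps3 (chr6:122456904-122457374, plus) differed at 1 of 468 bases, with bases 41 to 100 shown. Rpl9 and Rpl9-ps6 (chr19:32465865-32466578, minus) differed at 1 of 576 bases, with bases 236 to 295 shown. Rps6 and Rps6-ps4 (chr2:75191073-75191822, minus) had no difference over 747 bases, with bases 1 to 60 shown, and Rpl10 and Rpl10-ps3 had none over 642.
Rpl3: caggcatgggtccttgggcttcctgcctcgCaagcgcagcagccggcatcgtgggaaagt
Rpl3-ps1: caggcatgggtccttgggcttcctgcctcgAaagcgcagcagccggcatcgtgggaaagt
Rps27a: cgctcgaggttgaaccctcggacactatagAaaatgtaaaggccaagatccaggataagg
Rps27a-ps3: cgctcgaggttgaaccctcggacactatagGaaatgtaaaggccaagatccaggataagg
Rpl9: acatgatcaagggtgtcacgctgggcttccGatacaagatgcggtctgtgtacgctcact
Rpl9-ps6: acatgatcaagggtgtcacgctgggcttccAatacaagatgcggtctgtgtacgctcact
Rps6: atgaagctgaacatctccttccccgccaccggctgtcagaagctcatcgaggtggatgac
Rps6-ps4: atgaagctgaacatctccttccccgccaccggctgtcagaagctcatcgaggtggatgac

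**Figure D2:**
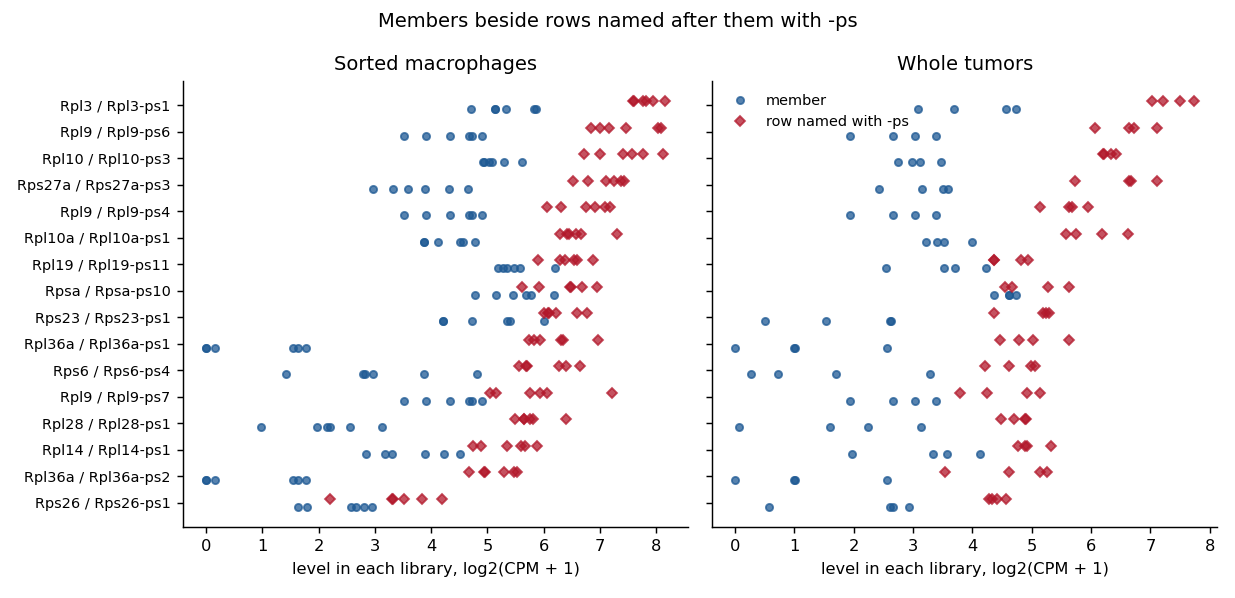
Level as log2(CPM + 1), horizontal axis, of 16 rows named with -ps (red diamonds) and of the members they are named after (blue circles), 1 mark per library; the rows were chosen for standing above their member in every library of both tables. In macrophages the Rpl3-ps1 marks lie at 190 to 285 CPM, right of every Rpl3 mark.

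Of the 85 members, 80 shared at least 1 stretch of 75 bases with a processed pseudogene in the annotation. The median member shared 43.6% of its 75-base stretches with another gene, against 0.353% for mitochondrial ribosomal protein genes. Level and this share showed little relation across members: the Spearman rho with CPM per kb was 0.00345 in macrophages (84 genes) and -0.175 in tumors (82 genes), as descriptions over genes of the same libraries. Rpl13 itself shared 79.6% of its stretches, and Rpl4 shared 8.47%. Values of single members with such copies are uncertain for this reason, and comparisons between libraries assume that reads were divided in the same way in each.

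SnoRNA genes lay inside 30 of the 85 members, 58 snoRNAs in all, in 20 of 50 large-subunit and 10 of 35 small-subunit genes. In 22 members a snoRNA lay inside an annotated exon, including Snord68 in Rpl13. In such genes reads of the snoRNA and of the host can overlap. No separate value of Snord68 was found for macrophages or tumors. The part of snoRNA reads in the Rpl13 value was not tested. Snord83b, which lies in Rpl3, was listed at 2692 CPM on average in macrophages (1841 to 3737 CPM) and 519 CPM in tumors, and so stood above its host in both tables. Members with a snoRNA had a median of 28.6 CPM per kb in macrophages (29 genes), and the 55 without one had 17.6.

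Summed over members, the family took 0.714% to 1.32% of each macrophage library and 0.189% to 0.233% of each tumor library. The macrophage share was 0.813% ± 0.133 (SD, n = 3) in cKO and 1.02% ± 0.280 (SD, n = 3) in control, with overlapping groups. Without Rpl13, a setting added after seeing the data, the shares were 0.350% ± 0.0578 and 0.358% ± 0.0670. In tumors the share was 0.189% and 0.191% in cKO and 0.233% and 0.203% in control. Both cKO tumors were thus below both controls, as they were for 14.3% of all genes tested. Without Rpl13 the tumor shares were 0.157% and 0.156% in cKO and 0.194% and 0.155% in control, and the groups overlapped.

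Summed large-subunit genes outweighed summed small-subunit genes in every library, by a ratio that fell in macrophages when Rpl13 was left out. The sums ran over unequal numbers of genes, 49 large and 35 small in macrophages and 47 and 35 in tumors. Summed large-subunit CPM was 5.83, 7.51 and 14.7 times the small-subunit sum in control macrophages 706, 720 and 775, and 9.55, 3.78 and 7.16 times in cKO 725, 746 and 867. Without Rpl13 the ratios closed to 1.97, 2.51 and 2.88 in control and 2.73, 1.76 and 2.19 in cKO. In tumors the ratio was 2.57 and 2.76 in controls 706 and 720 and 3.32 and 2.81 in cKO 725 and 746. Both cKO tumors were above both controls. This held also without Rpl13, over the same small-subunit sums, where the ratios were 2.58 and 2.12 in cKO and 1.97 and 1.87 in control. In macrophages the groups overlapped on each of these measures. With 2 tumors per group, such separation was common among single genes. Both cKO tumors were above both controls for 21.2% of all genes tested and below for 14.3%.

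**Figure D3:**
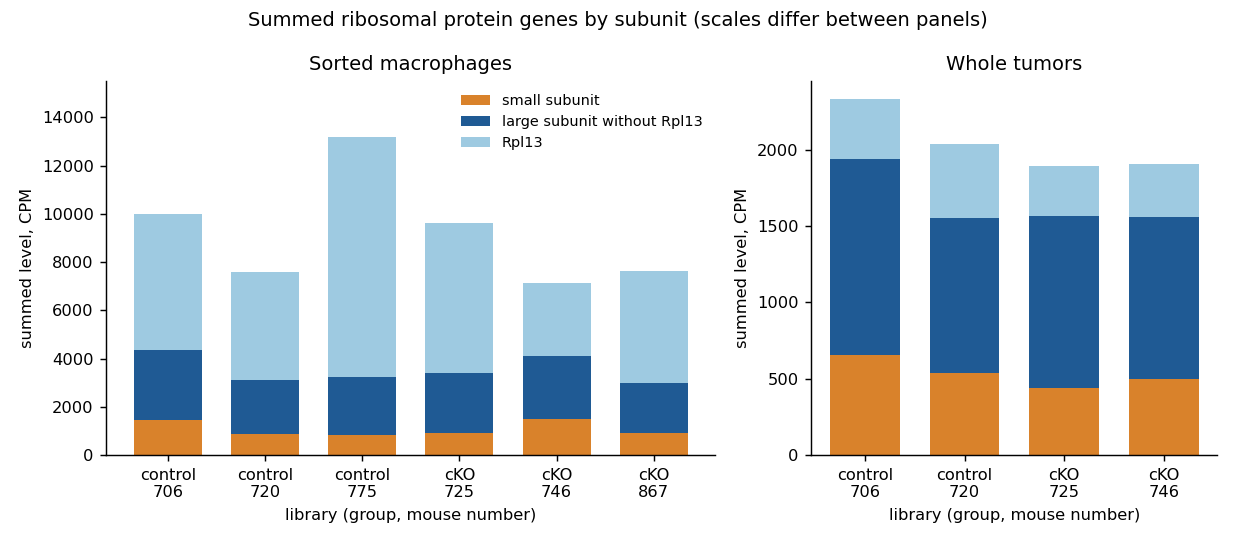
Summed CPM of small-subunit genes, large-subunit genes without Rpl13, and Rpl13, stacked for each library; the vertical scales differ between macrophages and tumors. Rpl13 exceeds the other blocks together in every macrophage library except cKO 746, and reaches 9911 CPM in control 775.

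Differences between mice cut across the genotypes in macrophages. Relative to each gene's mean over the table, 57 of 81 members tested were above it in control 706 (70.4%, median deviation 0.33 on the log2 scale) and 60 of 81 in cKO 746 (74.1%, 0.36). Of all genes tested, 52.3% were above their mean in 706 (0.04) and 60.4% in 746 (0.14). In the other 4 libraries 31 to 41 of 81 members were above their mean. The shift was larger in the small subunit, with median deviations of 0.47 in both 706 and 746, than in the large subunit, with 0.30 and 0.18. The mitochondrial ribosomal protein genes had deviations of 0.26 and 0.37 in the same 2 libraries, with 49 and 50 of 76 genes above their mean. The TOP and elongation genes had 16 and 17 of 22 above their mean (0.20 and 0.21), and the ribosome biogenesis genes 23 and 27 of 40 (0.09 and 0.29). The rows named with -ps also summed highest there, at 2834 CPM in 706 and 2749 CPM in 746 against 1815 to 1937 CPM in the other 4. These libraries had the fewest reads, 14.32 M in 706 and 19.9 M in 746. Close to 746 in depth was cKO 725, with 20.25 M reads and 31 of 81 members above their mean. The part of depth in the shift was not tested. In tumors, control 706 was again high, with 55 of 75 members above their mean, beside 50.5% of all genes tested, while cKO 746 was not, with 34 of 75 beside 59.5%. Within groups, the median SD of a member was 0.58 in macrophages and 0.53 in tumors on the log2 scale, beside 0.59 and 0.44 over all genes tested.

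**Figure D4:**
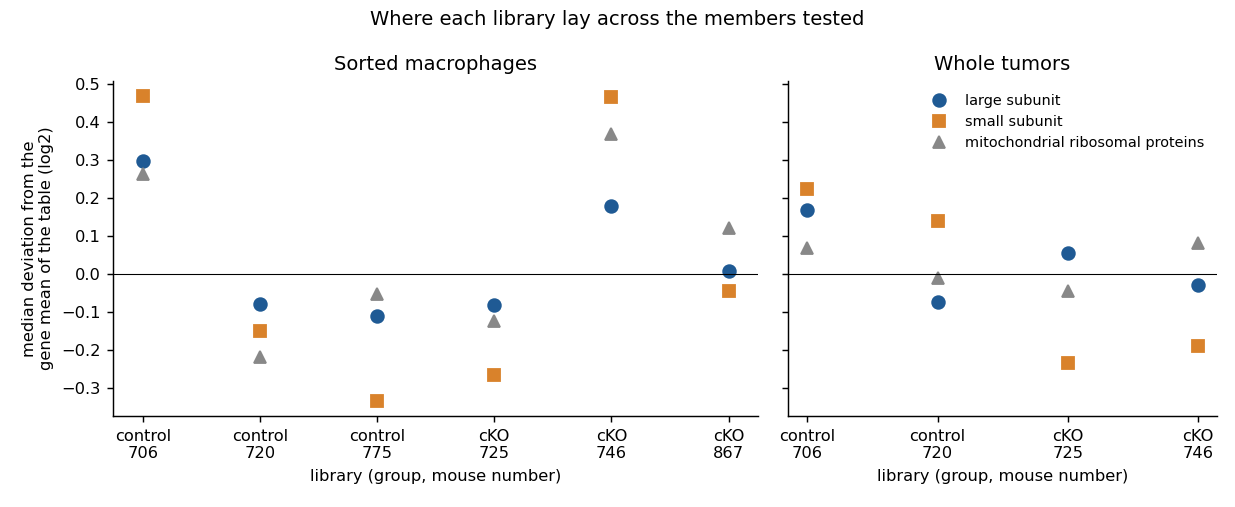
Median deviation of large-subunit, small-subunit and mitochondrial ribosomal protein genes from each gene's mean over its table (log2, vertical axis) in each library. In macrophages control 706 and cKO 746 lie above 0 for all 3 groups, and in tumors the small subunit lies above 0 in both controls and below 0 in both cKO tumors.

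No ribosomal protein gene passed the test between libraries labelled cKO and control macrophages. The fit (limma on log2(CPM + 1), two-sided, Benjamini-Hochberg adjustment over 16304 genes, threshold 0.05) called 0 members of 81 tested and 0 genes in all (0% called), with a lowest adjusted p of 0.9998. At an unadjusted p under 0.05 it gave 2 of 81 members, beside 428 of all genes (2.63%). One, the higher in cKO beside 1.53% of all genes, was Rpl26, a large-subunit protein known to bind p53 mRNA, at 26.7, 29.6 and 23.5 CPM in cKO 725, 746 and 867 and 22.1, 8.85 and 9.39 CPM in controls 706, 720 and 775. All 3 cKO values lay above the controls (log2 difference 1.05 ± 0.44, SE; adjusted p = 0.9998 in limma). The other, lower beside 1.09% of all genes, was Rpl7a, also of the large subunit, at 22.7, 38.9 and 12.6 CPM in cKO and 45.7, 44.8 and 36.2 CPM in control. Its groups overlapped through cKO 746, and its log2 difference was -0.88 ± 0.38 (SE, with an adjusted p of 0.9998 in limma). Rpl26 was the only member whose cKO libraries all exceeded the controls, beside 3.78% of all genes, and 2 members, Rpl15 among them, were below in all, beside 3.45% of all genes.

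The 2 subunits had near-zero medians in macrophages. The median log2 difference, cKO minus control, was -0.03 over 48 large-subunit genes, 0.12 over 33 small-subunit genes and 0.05 over all genes tested. Negative differences numbered 25 of 48 in the large and 11 of 33 in the small subunit, beside 45.3% of all genes tested. Without cKO 746 the small-subunit median was -0.15, and without control 706 it was 0.32. The most positive members at 5 CPM or more were Rpl36 (1.46 ± 0.97), Rpl26 and Rps10 (0.99 ± 0.80), each as log2 difference ± SE. The most negative were Rps27rt (-1.07 ± 0.81), Rpl7a and Rpl15 (-0.68 ± 0.35). Single libraries moved several of these: Rps27rt was at -0.019 without cKO 867 and -1.65 without cKO 746, Rpl7a at -0.48 without cKO 867, Rpl36 at 0.77 without cKO 746 and 2.78 without control 706, and Rps10 at 0.34 without cKO 746 and 1.79 without cKO 867. Rpl36, of the large subunit, was listed at 0 in controls 720 and 775 and at 14.6 CPM in control 706, against 1.68, 17.0 and 5.74 CPM in cKO. Rps10, a small-subunit protein at the mRNA entry side, ranged from 1.30 to 16.1 CPM in cKO and from 0.767 to 4.09 CPM in control.

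**Figure D5:**
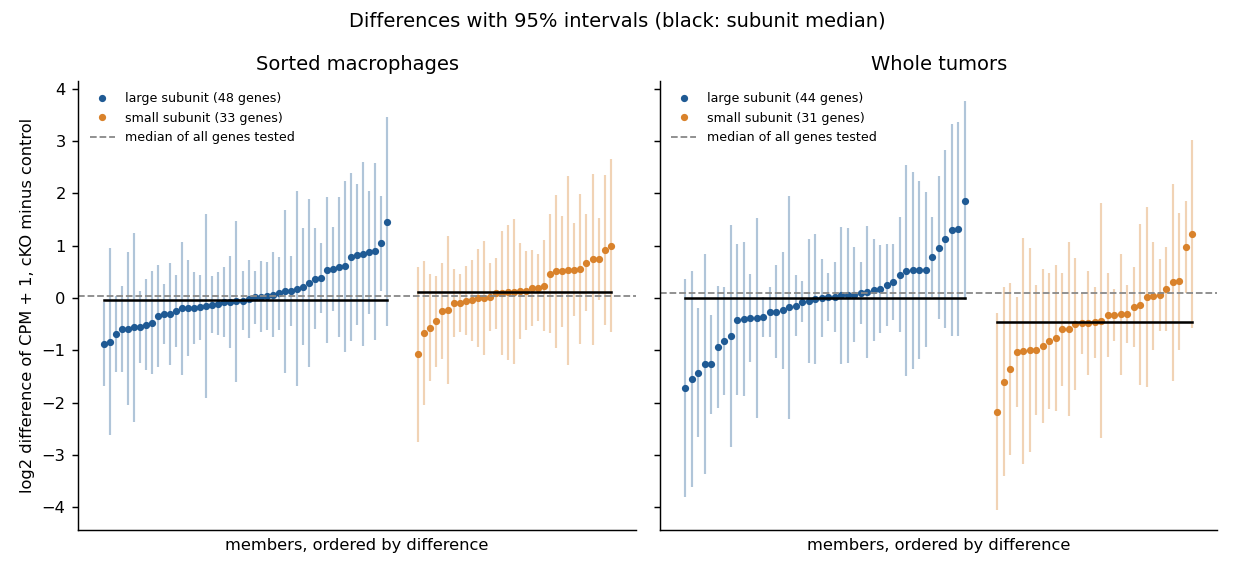
Log2 difference of CPM + 1, cKO minus control, of each member tested (points) with its 95% interval from limma (lines), ordered within each subunit, in macrophages and in whole tumors; black lines are subunit medians and the dashed line is the median of all genes tested. The small-subunit median in tumors, -0.46, lies below the dashed line at 0.09, and the other 3 subunit medians lie between -0.03 and 0.12; the large-subunit median in tumors, 0.01, turns negative under other scalings.

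No member passed in whole tumors either, and 23 of 31 small-subunit genes had a negative difference. The fit called 0 of 75 members tested and 0 of 14630 genes (0% called; limma, lowest adjusted p 0.4921 over all genes and 0.8193 over members), and 5 members had an unadjusted p under 0.05, beside 856 genes (5.85%). The median log2 difference was -0.46 over 31 small-subunit genes, 0.01 over 44 large-subunit genes (-0.06, -0.07 and -0.11 under the other 3 scalings) and 0.09 over all genes tested. The small-subunit share of negative differences was 74.2%, against 22 of 44 in the large subunit and 43.4% of all genes. Both cKO tumors lay below both controls for 11 of 31 small-subunit genes (35.5%) and 9 of 44 large-subunit genes (20.5%), beside 14.3% of all genes. They lay above for 2 and 5 of these, beside 21.2% of all genes. The difference between the subunits was not tested, since genes of a table share its 4 libraries. Without control 706 the small-subunit median was -0.25, and without control 720 it was -0.58; with 1 library left in a group, it is assumed to vary like the others. Other summed measures moved with the groups. The 6 fibroblast markers, all listed and none at 0 throughout, summed to 331 and 446 CPM in cKO and 579 and 692 in control. By single marker, 4 had a negative and 2 a positive difference. Both cKO tumors lay below both controls for 3 of the 6 (50%), beside 14.3% of all genes. Small nuclear RNAs took 15.6% and 18.003% of the cKO libraries and 20.4% and 24.0% of the controls. The part of these measures in the result was not tested.

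Among the 5 tumor members with an unadjusted p under 0.05, 3 were lower in cKO, beside 1.95% of all genes. Rpl3 stood at 11.9 and 7.50 CPM in cKO 725 and 746 and 22.8 and 25.7 CPM in controls 706 and 720 (log2 difference -1.27 ± 0.44, SE; adjusted p = 0.8193 in limma). Its near-identical copy Rpl3-ps1 stood at 179 and 148 CPM in cKO and 213 and 130 CPM in control, overlapping between groups. Rpl22l1, the paralog of the RNA-binding large-subunit protein Rpl22, stood at 3.53 and 13.3 CPM in cKO and 14.3 and 29.4 CPM in control (-1.42 ± 0.59). Its difference was -0.59 without cKO 725 and -2.25 without cKO 746. The third was Rps19bp1, no core ribosomal protein, at 1.03 CPM in cKO 725, listed at 0 in cKO 746 and at 4.83 and 6.05 CPM in control.

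The other 2 were higher in cKO, beside 3.9% of all genes. Rps4x, the X-linked small-subunit protein, stood at 24.6 and 29.5 CPM in cKO and 17.4 and 10.01 CPM in control (log2 difference 0.97 ± 0.41, SE; adjusted p = 0.8334 in limma). Rpl13a, a large-subunit protein that also silences translation of inflammatory mRNAs in myeloid cells, stood at 33.1 and 35.1 CPM in cKO and 25.2 and 15.0 CPM in control (0.78 ± 0.36). In macrophages Rps4x differed by -0.05 ± 0.32 and Rpl13a by 0.09 ± 0.34 on the log2 scale, with overlapping groups. Rpl31 (1.32 ± 0.96) and Rpl14 (0.96 ± 0.64), both of the large subunit, had tumor differences of that size or larger with wider errors. Rpl31 was at 13.01 CPM in control 706 and 1.14e-07 CPM in control 720, so its difference turned to -0.58 without control 720 and was 3.22 without control 706. The Rpl14 difference was 0.16 without control 720 and 1.77 without control 706, and that of Rps4x was 0.60 without control 720. Rps15, a small-subunit protein at the head of the particle, stood at 14.6 and 6.47 CPM in cKO and 27.4 and 16.3 CPM in control (-1.04 ± 0.49), whereas in macrophages it was at 41.8, 79.3 and 38.9 CPM in cKO and 52.1, 24.2 and 21.0 CPM in control. The tumor difference of Rps15 was -0.51 without cKO 746 and -1.57 without cKO 725.

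The stalk proteins recruit elongation factors to the large subunit, and their genes had unequal levels. In macrophages Rplp1 had 287 CPM per kb, Rplp0 61.0 and Rplp2 6.31. Rplp0, the base of the stalk, stood at 69.8, 119 and 85.8 CPM in cKO macrophages and 119, 47.5 and 56.3 CPM in controls, and control 706 alone kept the groups from separating. Its log2 difference was 0.38 ± 0.32, that of Rplp1 0.04 ± 0.31 and that of Rplp2 0.59 ± 0.64. In tumors Rplp0 differed by -0.0020 ± 0.36, Rplp1 by 0.01 ± 0.22 and Rplp2 by -0.38 ± 0.90, with overlapping groups for each.

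Among small-subunit genes fixed by name, Rps3, at the mRNA entry channel, stood at 65.1, 106 and 62.2 CPM in cKO macrophages and 121, 55.2 and 52.9 CPM in controls. In tumors it was at 47.5 and 44.9 CPM in cKO and 54.7 and 59.6 CPM in control, lower in both cKO tumors (-0.30 ± 0.26). Rpsa, which is also known as a laminin receptor precursor, ranged from 26.4 to 71.7 CPM over the macrophage libraries and from 19.5 to 25.5 CPM over the tumors. Rps6 stood at 1.66, 27.2 and 13.6 CPM in cKO macrophages against 5.88, 6.79 and 6.11 CPM in controls, and 0.210 and 2.25 CPM in cKO tumors against 0.641 and 8.77 CPM in controls. Its groups overlapped in both tables.

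Paralogs of core proteins were measured beside them. Rpl22 stood at 87.8 CPM and Rpl22l1 at 44.8 CPM on average in macrophages, which is 42.8 and 81.2 CPM per kb. In tumors they had 35.7 and 27.4 CPM per kb. Rpl7, a core large-subunit protein, had 153 CPM per kb in macrophages, and its relative Rpl7l1, a nucleolar factor, had 5.93. Rpl36al exceeded Rpl36a in macrophages, at 7.14 against 2.25 CPM per kb, and was below it in tumors, at 2.44 against 3.57. Rpl36a was listed at 0 in 2 macrophage libraries and 1 tumor. It shared 84.6% of its 75-base stretches with another gene, and Rpl36al shared 23.29%. The copy Rpl36a-ps2 had no difference from Rpl36a over 318 coding bases and stood above it in every library of both tables. Rps27l, known as a p53 target, had 14.6 CPM per kb in macrophages and 17.8 in tumors, and Rps27 had 2.12 and 1.75. Rps27 shared 98.52% of its 75-base stretches with another gene, and Rps27l shared 12%. The part of read division in the order of Rpl36al and Rpl36a and of Rps27l and Rps27 was not tested. Rpl39, at the tunnel exit, had 28.6 CPM per kb in macrophages, and Rpl39l, a paralog best known from testis, was listed at 0 in 5 of 6 libraries and at 1.67 CPM in cKO 867. None of these pairs had a member past the threshold in either table.

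Beside one another, macrophages had higher ribosomal protein CPM than the tumors they came from. The 2 tables were normalized separately, so these values are set side by side without a test. Over the 4 mice in both tables and 75 members with at least 1 CPM in each, the median log2 ratio of CPM + 1 was 1.01, and 64 of 75 were positive (85.3%). The same median was 0.36 over 11456 protein-coding genes, of which 66.2% were positive, and 0.15 over 69 mitochondrial ribosomal protein genes, of which 60.9% were. Large and small subunits were alike, at 0.99 over 44 and 1.08 over 31 genes. Of the 75 members, 38 were higher in macrophages in all 4 mice (50.7%), beside 35.8% of the protein-coding genes and 14.5% of the mitochondrial ribosomal protein genes, and 1, Rps7, was higher in none, beside 11.7% of the protein-coding genes. Protein-coding genes took 67.7% to 80.1% of macrophage libraries and 49.7% to 56.5% of tumor libraries, where the small nuclear RNAs were more abundant. A higher value in macrophages was not particular to the members. Over all libraries, Actb had 3120 CPM per kb in macrophages and 1468 in tumors, Eef1a1 1671 and 816, and Rack1 301 and 133. The noncoding RNA gene Rn7sk went the other way, at 29542 CPM in macrophages and 113550 CPM in tumors. Actb, Eef1a1 and Rn7sk were chosen after values were seen.

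The widest such gap among well-detected members was that of Rpl5, which with Rpl11 and 5S ribosomal RNA forms the particle that can bind Mdm2. Rpl5 stood at 194, 125, 168 and 155 CPM in macrophages of mice 706, 720, 725 and 746 and at 7.65, 9.98, 12.7 and 5.75 CPM in their tumors, 17.8-fold by the means. Rps23, at the decoding centre, stood 13.5-fold higher by the means, Rpl13 12.5-fold and Rps14 10.8-fold. Rpl5 shared 92.5% of its 75-base stretches with another gene. The copy Rps23-ps1 had no difference from Rps23 over 425 aligned coding bases. It stood at 109, 66.1, 67.1 and 95.7 CPM in macrophages of mice 706, 720, 725 and 746. In their tumors it stood at 38.1, 19.5, 36.9 and 35.6 CPM. The part of read division in these gaps was not tested. Rpl11 did not share the gap in scale, at 6.04 CPM in macrophages and 2.57 CPM in tumors of the 4 mice. At the other end, Rps7 was at 4.71 CPM in macrophages and 11.1 CPM in tumors of the 4 mice, and Rplp1 at 158 and 151 CPM.

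Genes that work with the ribosomal proteins were read from lists. Of 40 ribosome biogenesis genes tested in macrophages 27 were positive (median 0.08) and in tumors 19 of 40 (median -0.01). Over all genes tested, 8911 of 16304 were positive in macrophages (median 0.05) and 8286 of 14630 in tumors (median 0.09). Of the TOP and elongation genes 12 of 22 were positive in macrophages and 12 of 21 in tumors, with medians of 0.01 and 0.02. The regulators of ribosomal protein mRNA, mTOR and Myc pathway genes among them, had 11 of 17 positive in macrophages and 8 of 16 in tumors. Mitochondrial ribosomal protein genes had 40 of 76 positive in macrophages and 37 of 70 in tumors, with medians of 0.02 and 0.03. No gene of these lists passed the threshold in limma (lowest adjusted p 0.9998 in macrophages and 0.8193 in tumors). Rack1, outside the name rule, differed by -0.31 ± 0.21 in tumors and 0.01 ± 0.24 in macrophages.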

How the data were processed

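Per the labels' protocols, ribosomal RNA was removed with QIAseq FastSelect and not by poly(A) selection. The tools named are Partek and STAR 2.7.8a with GRCm38 (mm10), per the submitters' processing notes; the counting method and library normalization are not given in the sources used here. The authors deposited values on a log2 scale; undoing a log2(x + 1) step gave library sums of about 1000000, so they were read as log2(CPM + 1). Depth was estimated from the steps between low values, of which 82.5% to 90.1% per library came out whole within 0.1 read; no count test was run. A value under 1e-09 CPM is called listed at 0, which allows up to 3 reads (0.120 to 0.209 CPM in macrophages, 0.0565 to 0.0879 CPM in tumors; counting error only). Gene positions in the tables differ from GRCm38, so positions, transcript lengths and shared sequence come from GENCODE vM21 by gene identifier, and starts from RefSeq GRCm38.p6, where 65 members matched.

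The macrophage and tumor tables had separate limma fits (limma 3.58.1, R 4.3.3, eBayes with trend), cKO minus control and two-sided, over genes averaging 1 CPM or more; the fit was checked on simulated data. P-values were adjusted by the Benjamini-Hochberg method over all genes tested. A log2 difference of CPM + 1 understates changes of weakly expressed genes. Members named are a fixed list (stalk genes, Rpsa, Rpl3, Rps6, Rps3 and paralog pairs), the 3 highest per table, and the 3 most positive and 3 most negative at 5 CPM or more; other members named were chosen after their values were seen. The lists cover TOP and elongation genes, ribosome biogenesis, regulators, mitochondrial ribosomal proteins, noncoding snoRNA hosts and cell markers. Ribosome biogenesis genes and noncoding snoRNA hosts were named for being among the lowest unadjusted p of their list in limma. Members and lists were chosen with earlier results of these data known. Alternatives were other pseudocounts, filters, scalings (trimmed mean, median ratio, protein-coding sum), no trend, library weights, other member sets and each library left out. Each library of a table is a different mouse. Values of some single members are not reported here.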

Additional observations from a re-analysis of the deposited data

How the results depend on the processing

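No member passed the threshold in any setting run. The macrophage summed share differed by -0.21 percentage points with Rpl13 and by -0.0078 without it. Values here are log2 differences, cKO minus control, unless named otherwise. Scaling to protein-coding genes shifted the median of all tumor genes by -0.10, and relative to it the small subunit stayed lower. The tumor small-subunit median was -0.53 with trimmed-mean scaling, -0.54 with median-ratio scaling, -0.58 with protein-coding scaling, -0.40 at 5 CPM or more, -0.33 with no filter and -0.32 with a pseudocount of 5. The tumor median of all members was -0.29 with protein-coding scaling. The tumor log2 large-to-small ratio was 0.34 without snoRNA hosts, against 0.20 with them. The tumor summed share differed by -0.045 percentage points with protein-coding scaling and by -0.0089 without snoRNA hosts, against -0.028. With the 3 other scalings (trimmed mean, median ratio, protein-coding) the sign turned in tumors for Rpl10 (-0.0020, -0.017, -0.050), Rpl7 (-0.039, -0.056, -0.092) and Rplp1 (-0.051, -0.068, -0.10), and with protein-coding scaling alone for Rpl22 (-0.021). In macrophages it turned for Rpl7 (-0.013, -0.018, -0.054) and, with protein-coding scaling alone, for Rplp1 (-0.026).

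With each library left out in turn, 0 to 3 genes passed in macrophages (3 without control 775, none of them a member) and 0 in tumors. The tumor medians ranged from -0.31 to -0.029 over all members, from -0.22 to 0.16 over the large subunit and from -0.58 to -0.25 over the small subunit. The macrophage medians ranged from -0.11 to 0.18, -0.15 to 0.028 and -0.15 to 0.32. The log2 large-to-small ratio ranged from -0.73 to -0.055 in macrophages and from 0.080 to 0.32 in tumors. The summed share differed by -0.35 (without control 720) to -0.067 percentage points (without control 775) in macrophages, against -0.21, and by -0.043 (without control 720) to -0.014 (without control 706) in tumors. Of 26 named members tested in macrophages 14 changed sign with a library left out: Rpl10 (-0.30 to 0.0036), Rpl22 (-0.33 to 0.13), Rpl22l1 (-0.28 to 0.13), Rpl36al (-0.81 to 0.87), Rpl39 (-0.62 to 0.15), Rpl4 (-0.22 to 0.11), Rpl41 (-0.41 to 0.50), Rpl7 (-0.037 to 0.10), Rplp1 (-0.29 to 0.46), Rps27l (-0.45 to 0.52), Rps3 (-0.15 to 0.47), Rps4x (-0.30 to 0.20), Rps6 (-0.22 to 1.48) and Rpsa (-0.13 to 0.41). Of 22 in tumors 11 did: Rpl10 (-0.31 to 0.42), Rpl22 (-0.31 to 0.50), Rpl31 (-0.58 to 3.22), Rpl39 (-1.35 to 0.55), Rpl7 (-0.56 to 0.61), Rpl7l1 (-0.68 to 0.55), Rplp0 (-0.23 to 0.23), Rplp1 (-0.24 to 0.26), Rplp2 (-0.98 to 0.22), Rps27l (-1.03 to 0.033) and Rps6 (-2.30 to 0.27). The cause was not tested. Leaving out Rpl13 and adding the -ps rows were chosen after seeing the data. No paired analysis was possible because cKO and control mice share no number within a table and the tables were normalized separately.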

Other observations

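Noncoding snoRNA host genes, which release snoRNAs from their introns as many ribosomal protein genes do, had mostly negative differences in both tables: 7 of 9 in macrophages (median -0.50) and 7 of 8 in tumors (median -0.33), beside medians of 0.05 and 0.09 over all genes tested. Snhg5 stood at 1032, 656 and 702 CPM in cKO macrophages 725, 746 and 867 and at 1514, 961 and 1100 CPM in controls 706, 720 and 775, overlapping only through cKO 725 and control 720 (log2 difference -0.58 ± 0.29, SE; adjusted p = 0.9998 in limma). In tumors it stood at 129 and 271 CPM in cKO and 468 and 400 CPM in control (log2 difference -1.21 ± 0.26, SE; adjusted p = 0.6024 in limma). Snhg1 stood at 122, 131 and 75.8 CPM in cKO macrophages and 244, 135 and 167 CPM in controls, so that every cKO library was below every control. In macrophages this held for 1 of 9 hosts (11.1%), beside 3.45% of all genes. In tumors it held for 3 of 8 hosts (37.5%), beside 14.3% of all genes. None of the hosts passed the threshold, and 4 of the mice gave libraries to both tables.

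Among ribosome biogenesis genes, Rrp12, which acts in pre-ribosome export, stood at 13.8, 34.2 and 13.8 CPM in cKO macrophages and 8.20, 7.21 and 7.17 CPM in controls (1.21 ± 0.51; limma, adjusted p = 0.9998). In tumors Nhp2, of the snoRNA particles that guide pseudouridine formation, stood at 1.46 and 0.621 CPM in cKO and 8.90 and 7.11 in control. Its log2 difference was -2.17 ± 0.80 (limma, adjusted p = 0.8193). Every cKO macrophage library was above every control for 4 of 40 biogenesis genes, beside 3.78% of all genes. It was below for 0, beside 3.45%. In tumors cKO was above for 4 of 40, beside 21.2% of all genes, and below for 9 (22.5%), beside 14.3%.

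Rpl13 and the small nuclear RNAs were both highest in control macrophage 775, at 9911 CPM and 6.76% of the library. In tumors small nuclear RNAs took 15.6% to 24.0% while Rpl13 stood at 326 to 481 CPM.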
